A study of Mus musculus with 2 samples.

Results

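The circadian clock genes described here are 10 genes of the core clock and its output, *Clock*, *Arntl*, *Per1*, *Per2*, *Cry1*, *Cry2*, *Nr1d1*, *Nr1d2*, *Dbp* and *Tef*. They were chosen by symbol, as the rows of the count files whose Ensembl identifiers carry these names in GRCm38, and they make up 10 of the 53801 genes listed. Their transcripts were counted by RNA-seq in 2 libraries of microglia, each made from sorted cells of a different sham-operated mouse. The mice carried the Cx3cr1(CreER/wt) genotype, in which a tamoxifen-inducible Cre recombinase occupies a single Cx3cr1 allele, on a C57BL/6 background and with no floxed gene, so the other allele alone makes the fractalkine receptor. Both had received tamoxifen (75 mg/kg per day on 4 days), the first dose 14 days ahead of sham surgery, and cells were taken from the left hemisphere 3 days after surgery. The labels describe males of 8 to 10 weeks, whereas the study's methods describe an older range and both sexes. Cells were gated as CD11c–Ly6G–CD11b+CD45low. The stroke arm of the experiment was not analysed here, so the values below are levels in 1 group of 2 mice, and no comparison between conditions was made.

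The mammalian clock is a feedback loop of transcription. CLOCK and its partner BMAL1, the product of *Arntl*, bind E-boxes in DNA and switch on the *Per*, *Cry*, *Nr1d* and *Dbp* genes. PER and CRY proteins return to the nucleus and repress CLOCK and BMAL1, while the REV-ERB receptors encoded by *Nr1d1* and *Nr1d2* repress *Arntl*. DBP and TEF carry the rhythm to other genes through D-boxes. Microglia are known to hold such a clock, and many of these transcripts vary over the day in most tissues. The time of day at which cells were taken is not given in the sources used here.

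The sequence through which CLOCK and BMAL1 act was searched in RefSeq promoters (GRCm38.p6), taken as 250 bases before to 50 after each annotated start. Promoters were matched for 9 of the 10 genes, 14 promoters in all. None was matched for *Per2*, so its promoter was not searched. The E-box was searched as CACGTG, which reads the same on both strands, and its variant, the E′-box, as CACGTT on either strand, so that it appears below as its reverse complement. The windows below are shown because they carry the letters that link these genes in the loop. Each is 30 bases long, written 5′ to 3′ on the strand of the gene, and the capitals mark the match. A match describes the letters and not a bound site.
*Per1* E-box, chr11:69098771-69098800, plus strand, 166 bases before a start inside the gene, in an intron of longer transcripts: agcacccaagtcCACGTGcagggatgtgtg
*Cry1* E-box, chr10:85185097-85185126, minus strand, 60 bases before the start and outside the gene: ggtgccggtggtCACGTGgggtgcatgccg
*Tef* E-box, chr15:81811264-81811293, plus strand, 138 bases before an internal start, in an intron: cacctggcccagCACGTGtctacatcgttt
*Cry1* E′-box, chr10:85185116-85185145, minus strand, 79 bases before the start: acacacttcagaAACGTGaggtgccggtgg
*Cry2* E′-box, chr2:92434218-92434247, minus strand, 166 bases before the start and outside the gene: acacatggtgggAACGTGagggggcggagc
*Nr1d1* E′-box, chr11:98775388-98775417, minus strand, 28 bases before the start and outside the gene: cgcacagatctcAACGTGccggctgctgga

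The E-box was held by promoters of 3 of the 9 matched genes, *Per1*, *Cry1* and *Tef*, the last with a match at each of its 2 starts. Counted by promoter, these were 4 of 14, beside 7.15% of all 32851 promoters. The E′-box was held by promoters of 3 genes, *Cry1*, *Cry2* and *Nr1d1*, or 3 of 14 promoters, beside 4.68% of all promoters. The letters TAGGTCA, the core of the element read by REV-ERB and ROR receptors, occurred in 1 of the 9 genes. This was *Arntl*, where the match begins 30 bases after a start, so 1 of 14 promoters held it, beside 2.61% of all promoters. Neither the D-box TTANGTAA, found in 2.32% of all promoters, nor the cAMP response element TGACGTCA, found in 1.79%, was in a promoter of these 9 genes. *Clock*, *Nr1d2* and *Dbp* held none of the motifs in these windows.

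Library 1 held 23381026 counts on genes and library 2 held 41142609, and 13445 genes reached at least 10 counts in both, here called counted. All 10 clock genes were counted. Levels are given as CPM, which scales the gene counts of a library to a sum of 1000000. For a count of 0, the upper end of the interval is 0.158 CPM in the shallower library 1 and 0.0897 CPM in the deeper library 2. Intervals are exact 95% intervals, cover counting error only and treat each read as independent. Amplified reads are not independent molecules, so the intervals can be too narrow. All 10 of 10 microglia markers were counted, with a summed share of 5.12% in library 1 against 4.72% in library 2. All 13 of 13 neutrophil markers were counted too, although the gate excluded Ly6G+ cells, and their sum was 0.461% of library 1 and 6.22% of library 2. With these markers left out of the totals each log2 ratio below was higher by less than 0.1, and *Clock* (−0.98) was no longer past 2-fold. The part of other neutrophil transcripts in the values was not tested. Choroid plexus markers had 23.7 and 365 CPM, with 3 of 4 counted, and border macrophage markers 437 and 214 CPM, with 5 of 5 counted. Neuron markers summed to 2.87 and 4.33 CPM, with 2 of 6 counted and no count of *Gad1* in library 1. Astrocyte markers summed to 224 and 176 CPM, with 4 of 5 counted, and oligodendrocyte markers to 50.1 and 71.6 CPM, with 4 of 5 counted. B cell markers had 52.6 and 57.4 CPM, with 1 of 4 counted, and endothelial markers 18.6 and 15.2 CPM, with 2 of 4 counted. In sorted populations, fewer cells of a type and less RNA per cell cannot be told apart.

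Both activators were transcribed, and *Clock* differed between the libraries by more than its counting error. *Clock* (ENSMUSG00000029238, chr5:76209868-76304792, minus strand), the partner of BMAL1 in the activating dimer, had 605 counts or 25.9 CPM in library 1 and 507 counts or 12.3 CPM in library 2. Its CPM was 2.10-fold higher in library 1, and the counting intervals of the libraries did not overlap (23.9 to 28.0 CPM and 11.3 to 13.4 CPM). *Arntl* (ENSMUSG00000055116, chr7:113207465-113314126, plus strand) encodes BMAL1, without which the loop does not run. It had 417 counts or 17.8 CPM in library 1 and 728 counts or 17.7 CPM in library 2. The mean of *Arntl* was 17.8 ± 0.0993 CPM (SD, n = 2 libraries), the smallest spread of the 10 genes, against 19.1 ± 9.58 CPM (SD, n = 2) for *Clock*.

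Of the repressors, *Per1*, *Per2* and *Cry2* were lower in library 2, and *Cry1* had nearly the same CPM in both. *Per1* (ENSMUSG00000020893, chr11:69095217-69109960, plus strand), a period gene that stress hormones and cAMP also induce, had 22.5 and 6.68 CPM in libraries 1 and 2, from 526 and 275 counts. *Per2* (ENSMUSG00000055866, chr1:91415982-91459324, minus strand), its paralog in the repressor complex, had 7.96 and 1.31 CPM, from 186 and 54 counts. *Per2* had the fewest counts in library 2 and differed most between the libraries, by 6.06-fold with an interval of 4.45 to 8.37. *Cry1* (ENSMUSG00000020038, chr10:85131700-85185064, minus strand), the stronger cryptochrome repressor, had 11.98 and 12.5 CPM, from 280 and 516 counts. *Cry2* (ENSMUSG00000068742, chr2:92403646-92434043, minus strand) had 10.9 and 4.74 CPM, from 254 and 195 counts. Means were 14.6 ± 11.2 CPM for *Per1*, 4.63 ± 4.70 for *Per2*, 12.3 ± 0.4004 for *Cry1* and 7.80 ± 4.33 for *Cry2* (SD, n = 2 for each).

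The REV-ERB genes lay in opposite directions between the libraries, with *Nr1d1* higher and *Nr1d2* lower in library 2 under each scaling used. *Nr1d1* (ENSMUSG00000020889, chr11:98767932-98775333, minus strand), which encodes REV-ERBα, had 104 counts or 4.45 CPM in library 1 and 252 counts or 6.13 CPM in library 2. On the CPM scale its log2 ratio interval lay above 0 (0.13 to 0.81). *Nr1d2* (ENSMUSG00000021775, chr14:18204054-18239127, minus strand), which encodes REV-ERBβ, had 684 counts or 29.3 CPM and 643 counts or 15.6 CPM. Per exonic base it was the more abundant receptor in both mice, with 15.4 against 4.11 TPM (counts per exonic base, scaled to a sum of 1000000) in library 1 and 6.62 against 4.56 TPM in library 2. Means were 5.29 ± 1.19 CPM for *Nr1d1* and 22.4 ± 9.63 CPM for *Nr1d2* (SD, n = 2). Exons of *Thra* on the opposite strand cover 8.55% of the exonic bases of *Nr1d1*, and *Thra* had 89 and 97 counts. Whether the counting used strand is not given in the sources used here, so reads from that stretch cannot be assigned to either gene.

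The output genes encode transcription factors of the PAR bZIP family. On the CPM scale, *Tef* differed between the libraries by more than counting error and *Dbp* by less. *Tef* (ENSMUSG00000022389, chr15:81802421-81826863, plus strand) had the highest CPM of the 10 genes in both libraries, with 1791 counts or 76.6 CPM in library 1 and 828 counts or 20.1 CPM in library 2. *Dbp* (ENSMUSG00000059824, chr7:45705088-45710203, plus strand), a direct E-box target with a strong daily rhythm in many tissues, had 158 counts or 6.76 CPM and 321 counts or 7.80 CPM. *Tef* was 3.81-fold higher in library 1, while the interval of the *Dbp* log2 ratio ran from −0.07 to 0.49 and included 0. Other scalings moved the *Dbp* log2 ratio up, to 0.46 with TMM, 0.48 with DESeq2 size factors and 0.84 after adjusting for GC content alone. Means were 48.4 ± 39.9 CPM for *Tef* and 7.28 ± 0.739 CPM for *Dbp* (SD, n = 2). Exons of *Sphk2* on the opposite strand cover 18.0% of the exonic bases of *Dbp*, and *Sphk2* had 1673 and 1404 counts, so the *Dbp* value depends on how shared stretches were counted.

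**Figure D1:**
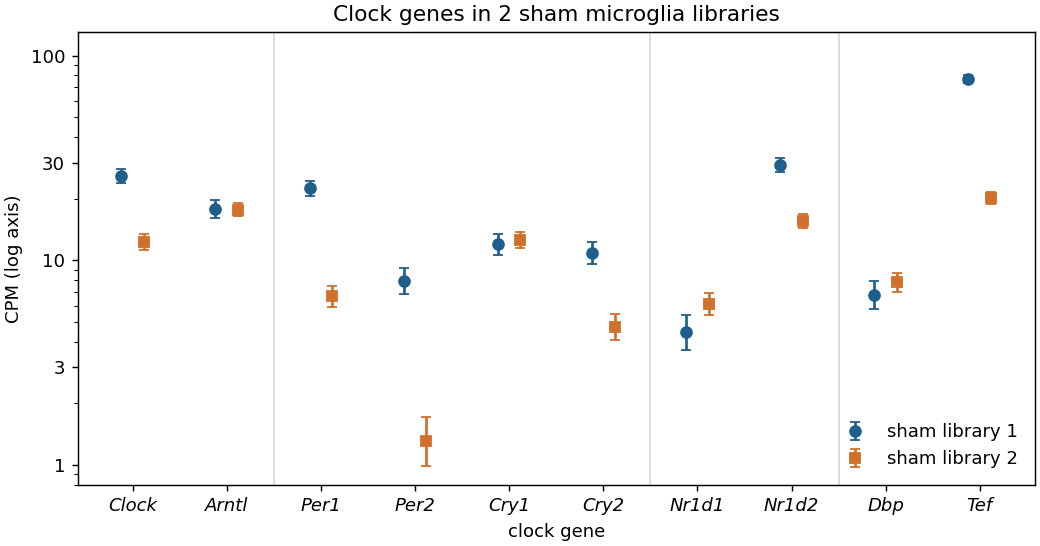
CPM of each clock gene (log axis) in sham library 1 (circles) and sham library 2 (squares), with exact 95% Poisson intervals for counting error, grouped from left to right as activators, repressors, REV-ERB receptors and output genes. *Arntl* (17.8 and 17.7 CPM) and *Cry1* (11.98 and 12.5 CPM) sit at the same height in both, while *Tef* lies at 76.6 and 20.1 CPM.

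Levels of different genes were compared per length, as TPM over the union of each gene's exons. The order by mean TPM was *Tef* (16.8 ± 15.4), *Nr1d2* (11.002 ± 6.20), *Cry1* (9.40 ± 1.13), *Per1* (7.04 ± 6.11), *Dbp* (6.20 ± 0.317), *Arntl* (6.07 ± 0.957), *Nr1d1* (4.34 ± 0.318), *Clock* (3.71 ± 2.34), *Cry2* (3.30 ± 2.24) and *Per2* (2.19 ± 2.37; SD, n = 2 for each). The ranges over the libraries overlapped for 8 of the 9 neighbours in this order, and only *Arntl* and *Nr1d1* were apart. The 10 genes lay between percentiles 20.8 (*Per2*) and 61.2 (*Tef*) of mean TPM among the counted genes, from low to middling levels. The top of the order was not shared by the libraries. *Tef* led in library 1 with 27.7 TPM and was in place 4 in library 2 with 5.86 TPM, where *Cry1* led with 8.61 TPM. *Per2* was last in both, with 3.86 and 0.514 TPM.

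The 10 genes summed to 214 CPM in library 1, against 104.98 CPM in library 2. More than 2-fold lower in library 2 were 5 of 10 clock genes, *Clock*, *Per1*, *Per2*, *Cry2* and *Tef*, where 25.9% of all counted genes were. None of the 10 was more than 2-fold higher, where 5.74% of all counted genes were. The median log2 ratio, library 2 over library 1, was −0.99 over the clock genes and −0.26 over all counted genes. A scaling by TMM brought the median of all counted genes to −0.01 and left 3 clock genes past 2-fold, *Per1*, *Per2* and *Tef*. It also changed the split of all counted genes from 3485 lower and 772 higher to 2646 lower and 1180 higher. Against the spread of all genes, the log2 ratio of *Per2* (−2.60) was at percentile 2.31, that of *Tef* (−1.93) at percentile 7.69 and that of *Per1* (−1.75) at percentile 10.2. At the other end, the ratio of *Nr1d1* (0.46) was at percentile 83.6. With TMM, *Arntl* was at 0.24, *Cry1* at 0.32 and *Dbp* at 0.46 on the log2 scale, so the near-equality of *Arntl* and *Cry1* holds for CPM only. With a single library on each side, these ratios compare 2 libraries, and no p-value is given. Each library came from a different mouse, so differences of mouse and of library preparation cannot be told apart.

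**Figure D2:**
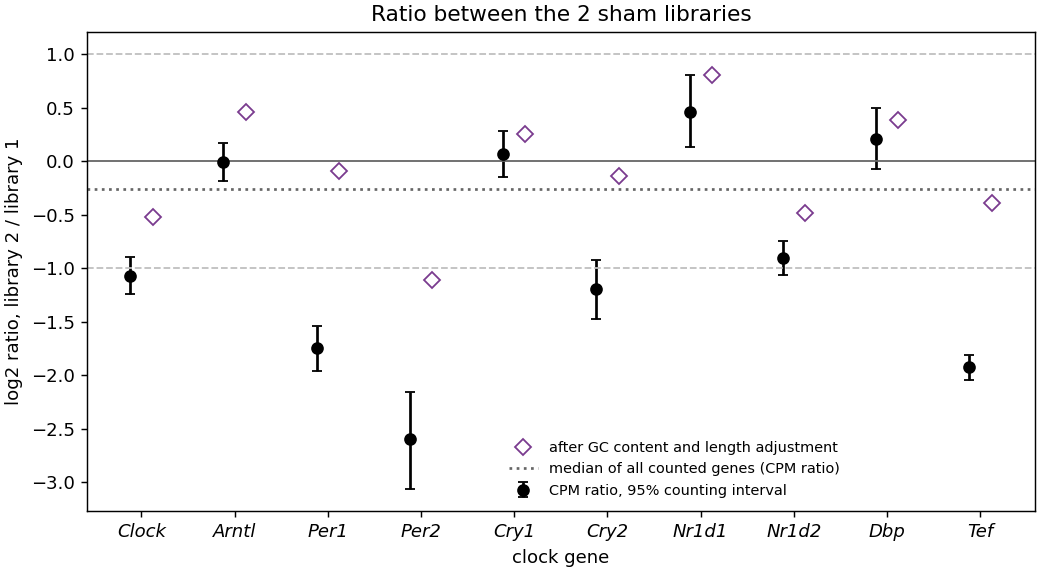
Log2 ratio of CPM, library 2 over library 1, for each clock gene (black, with exact 95% counting intervals) and the same ratio after subtracting the median of all counted genes of like GC content and length (open diamonds). Dashed lines mark 2-fold and the dotted line the median of all counted genes (−0.26); *Per2* stays past 2-fold after the adjustment (−1.12).

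The ratio between the libraries moved with the length and GC content of transcripts across all genes, and the clock genes differ widely in both. Among counted genes, the median log2 ratio was 0.17 for longest transcripts of 1656 to 2143 bases and −1.05 for those over 6440 bases. It was −0.13 in the lowest of 10 bins of GC content and −0.64 in the highest. Genes that were both long and rich in GC had the lowest values, and *Per1*, *Per2* and *Tef* belong to these. The longest *Per1* transcript has 4671 bases and 59.4% GC, and the 98 genes in its bin had a median of −1.66, close to the −1.75 of *Per1* itself. For *Tef*, with 4403 bases and 53.1% GC, the median of the bin was −1.54. *Dbp* is the richest in GC (61.6%) but has only 1837 bases, and the median of its bin was −0.18. *Clock* is the longest (9744 bases) and the poorest in GC (40.9%), with a bin median of −0.55. How far length and GC content account for the ratios of single genes was not tested.

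**Figure D3:**
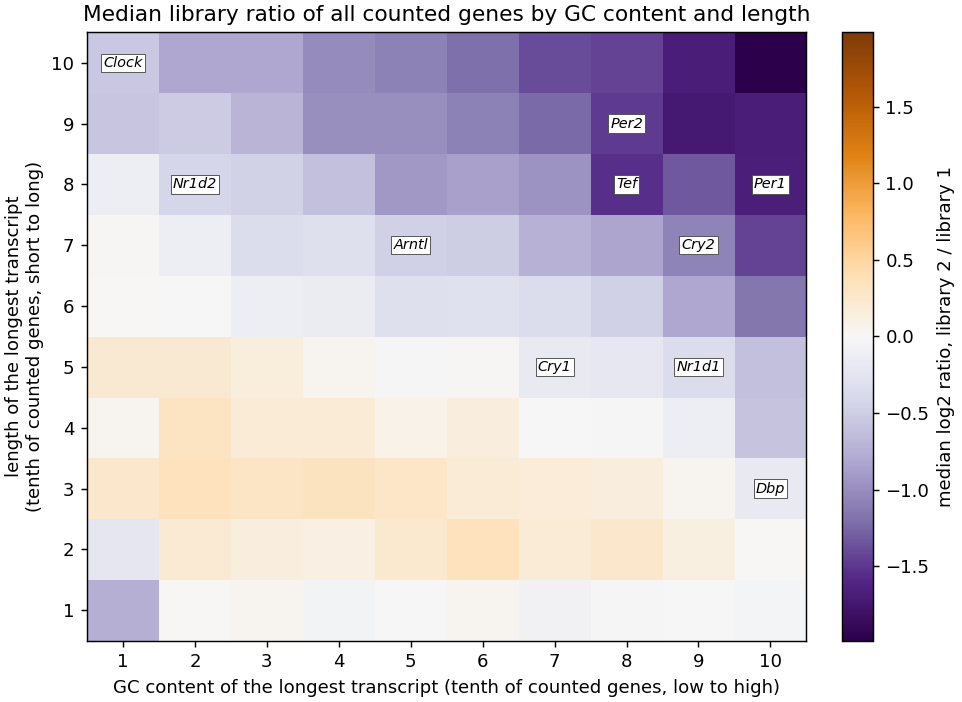
Median log2 ratio, library 2 over library 1, of all counted genes in 10 bins of GC content (horizontal, low to high) and 10 of length of the longest transcript (vertical, short to long), each with an equal share of genes, with the name of each clock gene in its bin. Purple marks lower values in library 2; *Per1*, *Per2* and *Tef* lie in bins with medians of −1.66, −1.48 and −1.54, and *Dbp* in a bin at −0.18.

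After subtracting the median of the bin from each log2 ratio, 1 of 10 clock genes was more than 2-fold lower in library 2, where 12.7% of the 13439 counted genes with known GC content and length were, and none was more than 2-fold higher, where 9.7% were. That gene was *Per2*, with an adjusted log2 ratio of −1.12, at percentile 10.5. The adjusted values of *Per1* (−0.09) and *Cry2* (−0.14) were near 0, and those of *Tef* (−0.39), *Nr1d2* (−0.48) and *Clock* (−0.52) were closer to 0 than the unadjusted ones. The adjusted values of *Cry1* (0.25), *Dbp* (0.39), *Arntl* (0.46) and *Nr1d1* (0.80) were above 0. The same 6 genes, *Clock*, *Per1*, *Per2*, *Cry2*, *Nr1d2* and *Tef*, were below 0 with CPM, TMM, DESeq2 size factors and both adjustments. The median over the 10 genes was −0.11 after the adjustment.

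Ratios of clock genes within a library do not depend on how the libraries are scaled, and 7 pairs were compared per length. BMAL1 and CLOCK act as a dimer, and *Arntl* had 1.26 times the TPM of *Clock* in library 1 (1.11 to 1.43) and 2.62 times in library 2 (2.34 to 2.94). *Per1* had 2.94 times the TPM of *Per2* in library 1 (2.48 to 3.50) and 5.30 times in library 2 (3.94 to 7.23). *Cry1* had 2.09 times the TPM of *Cry2* in library 1 (1.75 to 2.48) and 5.01 times in library 2 (4.24 to 5.93). In these pairs the first gene led in both mice and led by more in library 2. *Nr1d1* had 0.267 times the TPM of *Nr1d2* in library 1 (0.215 to 0.329) and 0.689 times in library 2 (0.593 to 0.798). *Dbp* had 0.232 times the TPM of *Tef* in library 1 (0.196 to 0.273) and 1.02 times in library 2 (0.893 to 1.16). Here the second gene led in library 1, and the interval of the *Dbp* to *Tef* ratio included 1 in library 2. These intervals do not cover the choice of length. With the longest transcript as length, *Arntl* to *Clock* was 1.68 and 3.50, and *Cry1* to *Cry2* 1.45 and 3.48, in libraries 1 and 2. By that length *Per1* to *Per2* was 3.53 and 6.36, *Nr1d1* to *Nr1d2* 0.261 and 0.672, and *Dbp* to *Tef* 0.211 and 0.929.

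In all 5 of these pairs the gene with the shorter longest transcript was the one with the higher ratio in library 2, from 3995 against 9744 bases for *Arntl* and *Clock* to 1837 against 4403 bases for *Dbp* and *Tef*. With both genes adjusted for GC content and length, the change of the pair from library 1 to library 2 went from 1.06 to 0.98 on the log2 scale for *Arntl* to *Clock*, and from 1.37 to 1.29 for *Nr1d1* to *Nr1d2*. It went from 1.26 to 0.39 for *Cry1* to *Cry2* and from 2.14 to 0.78 for *Dbp* to *Tef*. For *Per1* to *Per2* it went the other way, from 0.85 to 1.03. Across the arms of the loop, *Arntl* had 1.64 times the TPM of *Nr1d1* in library 1 (1.32 to 2.05) and 1.18 times in library 2 (1.02 to 1.37). With the longest transcript in place of all exons as length, these ratios were 2.73 and 1.97. With all exons as length, the ratio of *Arntl* to *Dbp* was 1.05 (0.872 to 1.27) and 0.902 (0.790 to 1.03) in libraries 1 and 2. Both of these intervals included 1. By the longest transcript the values were 1.21 and 1.04, and intervals were not computed for that length. Which gene of this pair led in library 2 thus depends on the length used. Of the 7 pairs, *Arntl* to *Nr1d1* and *Arntl* to *Dbp* had the smallest change between the libraries, by −0.47 and −0.22 on the log2 scale. *Nr1d1* and *Dbp* are known to peak at other times of day than *Arntl*, but a part of time of day in these ratios was not tested.

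**Figure D4:**
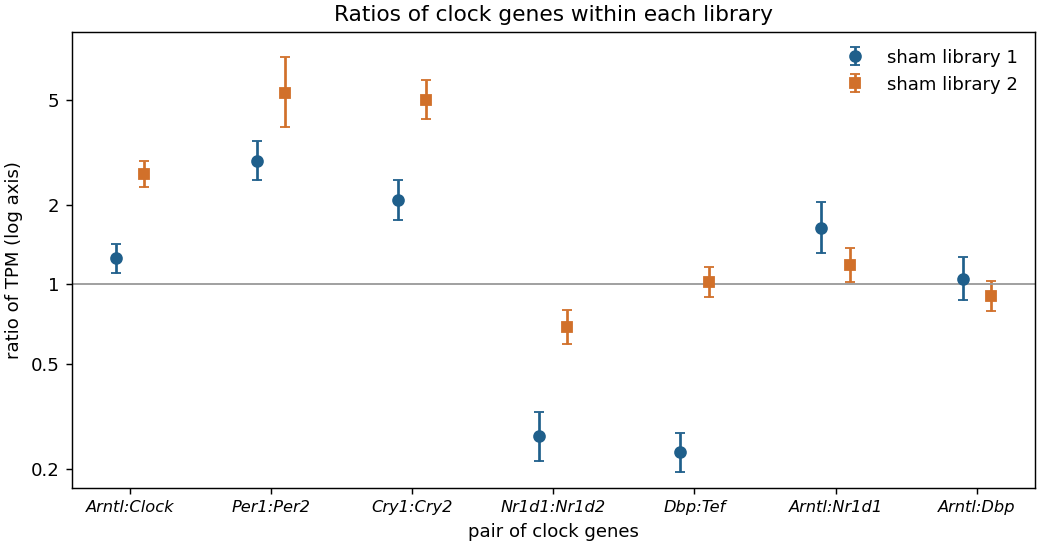
Ratio of TPM between paired clock genes (log axis) within sham library 1 (circles) and sham library 2 (squares), with exact 95% counting intervals. The intervals of the libraries are apart for the 5 partner pairs on the left and overlap for *Arntl* to *Nr1d1* and *Arntl* to *Dbp*.

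Other genes of the pathway were taken from a list of 21, and 18 of these were counted. In library 2, 5 of the 18 were more than 2-fold lower and none was more than 2-fold higher, where 25.9% and 5.74% of all counted genes were, and their median log2 ratio was −0.29. Of further transcription factors, *Bhlhe41*, which encodes the E-box repressor DEC2, had 96.5 and 15.5 CPM. Per length it had 40.9 TPM in library 1, above each of the 10 core genes, and 5.27 TPM in library 2. Its paralog *Bhlhe40*, encoding DEC1, had 8.68 and 16.5 CPM, or 5.25 and 8.03 TPM, so the order of the DEC genes differed between the libraries. *Per3*, the remaining period gene, had 14.9 and 5.49 CPM, and *Hlf*, a further PAR bZIP gene, had 5.47 and 2.43 CPM. Both were lower in library 2 on the CPM scale. After the adjustment for GC content and length, the log2 ratio was −0.20 for *Per3* and −0.46 for *Hlf*. *Dbp*, of the same family as *Hlf* and *Tef*, had 6.76 and 7.80 CPM. *Nfil3*, the repressor that competes with DBP and TEF for D-boxes, had 20.2 and 19.7 CPM, and *Ciart*, another repressor of the loop, had 1.67 and 1.65 CPM. *Rora*, the ROR receptor that activates *Arntl*, had 5.99 and 8.73 CPM.

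Some partners of the clock seen in other tissues were nearly silent here. *Npas2*, which can stand in for CLOCK, had 3 and 0 counts, and *Arntl2*, the BMAL1 paralog, had 0 and 6. *Rorb*, a ROR receptor gene, had 0 and 1 counts. Several enzymes that modify clock proteins had more transcript per length than the core genes. *Csnk1d* and *Csnk1e*, the casein kinases that phosphorylate PER proteins, had 139 and 82.5 TPM and 70.9 and 47.4 TPM. *Usp2*, a ubiquitin protease under clock control, had the highest level of the list, with 186 and 121 TPM. Of the ubiquitin ligase genes, *Fbxw11*, which targets PER proteins, had 153 and 51.4 CPM, and its paralog *Btrc* had 36.2 and 40.6 CPM. *Gsk3b*, a kinase of several clock proteins, had 101 and 42.2 CPM. After the adjustment for GC content and length, *Bhlhe41* (−1.66) and *Fbxw11* (−1.11) were the 2 of 18 that stayed more than 2-fold lower, and *Rora* (1.09), *Bhlhe40* (1.21) and *Timeless* (1.21) were the 3 more than 2-fold higher. The shares over all genes after this adjustment were 12.7% and 9.7%.

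**Figure D5:**
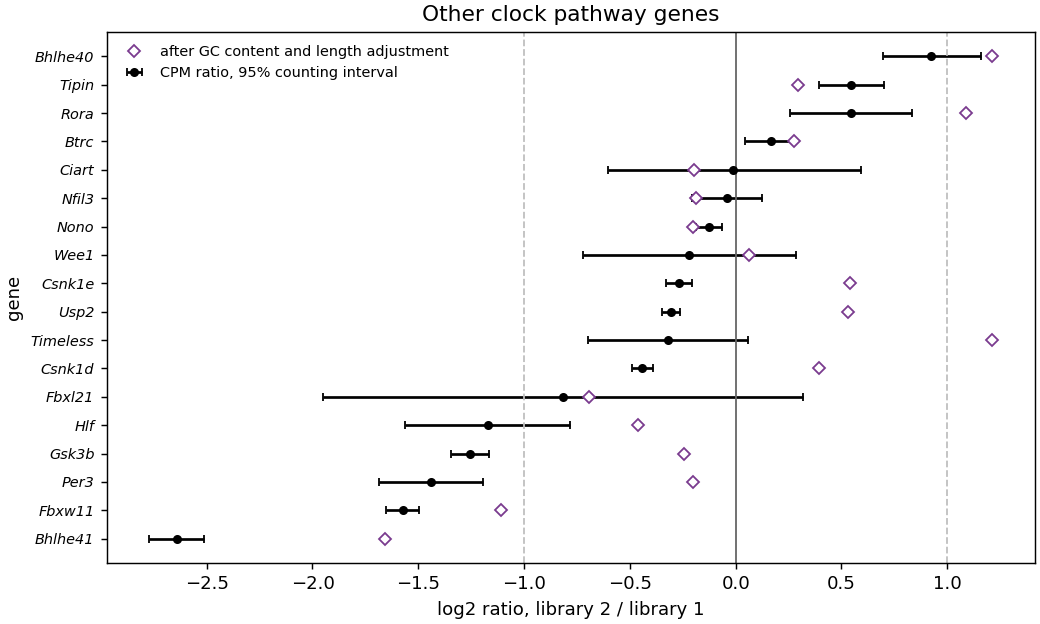
Log2 ratio of CPM, library 2 over library 1, for the 18 counted genes of the wider clock pathway (black, with exact 95% counting intervals) and after the adjustment for GC content and length (open diamonds). Dashed lines mark 2-fold; *Bhlhe41* (−2.64) has the lowest ratio and *Bhlhe40* (0.92) the highest.

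*Per1* is also induced by cAMP signalling and by glucocorticoids. Genes of the general early response and of the glucocorticoid response were read beside it. The paper acknowledges that its warm enzymatic digestion of the tissue could itself have changed microglial transcripts during cell isolation. The part of this in the values here was not tested. *Fos* (2786 and 5980 CPM) and *Dusp1* (1780 and 3668 CPM) were higher in library 2, *Jun* (3760 and 3312 CPM) and *Egr1* (3416 and 2382 CPM) were within 2-fold, and *Nr4a1* (139 and 34.3 CPM) was lower. Of the glucocorticoid-induced genes, *Tsc22d3* (177 and 662 CPM) and *Sgk1* (829 and 1412 CPM) were higher in library 2, the latter by less than 2-fold, and *Fkbp5* (72.4 and 26.3 CPM) was lower. *Nr3c1*, the receptor gene, had 218 and 148 CPM, and *Zbtb16* had 0 and 14 counts. *Per1*, at 22.5 and 6.68 CPM, was on the side of *Nr4a1* and *Fkbp5*, and *Fos*, *Dusp1* and *Tsc22d3* were on the other. After the adjustment for GC content and length, *Nr4a1* was at −1.90 and *Fkbp5* at −0.72 on the log2 scale, beside −0.09 for *Per1*. *Egr1* was then at 1.14, past 2-fold higher in library 2, and *Jun* at 0.63, both with the opposite sign to their CPM ratios (−0.52 and −0.18). *Tsc22d3* was at 1.93, *Dusp1* at 1.07, *Fos* at 0.92 and *Sgk1* at 0.80.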

How the data were processed

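Microglia were sorted from 2 sham-operated mice, 1 library each. Per the study's methods and the labels, cDNA was made with the SMART-Seq HT Kit and tagmented, and the authors aligned read pairs to GRCm38 by HISAT2 and tallied them over Ensembl genes by HTSeq. Versions, annotation release and strand setting are not given in the sources used here. The deposited values are raw counts without normalization. Symbols, exons, length and GC content came from GENCODE M21 (GRCm38) for 53620 of 53801 identifiers, and starts were converted to count from 1. CPM and TPM were computed per library. Intervals are exact (Poisson for levels, Clopper-Pearson for ratios). For the adjustment, the median log2 ratio of genes in the same of 10 bins of GC content and 10 of longest-transcript length was subtracted. This step was tested on simulated ratios that rose with length, whereas those of the data fell for the longer transcripts. That simulation therefore does not cover the trend of these libraries. A gene was counted with at least 10 counts in both libraries. edgeR 4.0.16 (TMM) and DESeq2 1.42.0 (size factors) in R 4.3.3 gave other scalings, and Python 3.11.15, numpy 2.4.6, scipy 1.17.1, pandas 2.3.3 and matplotlib 3.10.9 the rest. All 10 clock genes were named, and of the wider list every counted gene could be. Some genes first placed on that list are not reported here and enter none of its counts. A GC-only adjustment, other count minimums, longest-transcript lengths and totals without set genes were tried as alternatives. The genes and lists were chosen with earlier results of these data known. No test was run, because both libraries belong to 1 group.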

Additional observations from a re-analysis of the deposited data

How the results depend on the processing

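No paired analysis was possible because both libraries belong to 1 group. Depth limited *Per2* most, with 54 counts in library 2 and the widest ratio interval. The 5 clock genes more than 2-fold lower in library 2 became 3 with TMM, 3 with DESeq2 size factors, 3 after adjusting for GC content alone and 1 after GC content and length. Of all 13445 counted genes, 3485 lower became 2646 with TMM and 2555 with DESeq2 size factors. After GC content and length, 12.7% of 13439 were lower, and for GC content alone this share was not computed. The cause of the shared trend with length and GC content was not tested. The median log2 ratio of the clock genes, −0.99, became −0.74 with TMM, −0.71 with DESeq2, −0.81 with GC content alone and −0.11 with GC content and length. Of the wider list, 5 lower genes became 3 with DESeq2 and 2 with GC content and length, and 0 higher genes became 1 with TMM, 1 with DESeq2 and 3 with GC content and length. Over all counted genes, 772 higher became 1180 with TMM and 1248 with DESeq2. With at least 50 counts in both libraries, 2695 genes were lower and 408 higher, and with at least 1 count 5357 and 1945. Another minimum also changes how many genes are compared, so these counts are not shares of the 13445. With the longest transcript as length, 5 of 10 genes kept their place in the order, the mean log2 ratio of *Arntl* to *Nr1d1* went from 0.48 to 1.21 and that of *Arntl* to *Dbp* from −0.04 to 0.17. With 1 library left out, 3 to 4 of 10 kept their place. Leaving mitochondrial transcripts out of the totals kept 5 clock genes lower, where 3500 of all 13445 counted genes were. Totals without the 13 neutrophil markers, an alternative chosen after seeing the data, left 4 clock genes and 3186 of all counted genes more than 2-fold lower.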
